A study of Mus musculus with 4 samples.

Results

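The Hippo kinases and their upstream regulators were followed through 10 of the 32285 genes in the deposited table, chosen by gene symbol, and all 10 were present: the kinases Stk3, Stk4, Lats1 and Lats2, the scaffold Sav1, the membrane-linked regulators Nf2, Wwc1 and Wwc2, the angiomotin Amotl2 and the phosphatase Ptpn14. The samples were mouse alveolospheres, organoids grown from lung fibroblasts that carry the surface receptor PDGFRα and from alveolar type 2 (AT2) cells, which make surfactant and renew the alveolar lining. In the 2 YAP/TAZ KD libraries the AT2 cells were wild type and the PDGFRα-positive fibroblasts carried a knockdown of YAP and TAZ, the co-activators that the pathway restrains. In the 2 control libraries both cell types were wild type. Both groups received 3 µg/ml doxycycline, begun on day 7 and kept on to day 14, when the cultures were collected, so the agent was shared. The labels call the libraries biological replicates without naming separate animals or cultures. Every p-value below therefore rests on the spread among the libraries, part of which may be technical. With 2 libraries per group, the tests estimate that spread partly across genes, not from each gene alone. No source used here gives how the knockdown was driven, beyond its restriction to PDGFRα-positive cells.

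In the Hippo pathway the kinases Stk3 and Stk4, held together by the scaffold Sav1, phosphorylate Lats1 and Lats2, which in turn phosphorylate YAP and TAZ and keep them out of the nucleus. Nf2 (merlin) and the KIBRA proteins Wwc1 and Wwc2 recruit the kinases to the cell membrane, and the angiomotins and Ptpn14 bind YAP directly and hold it in the cytoplasm. YAP and TAZ that escape act with TEAD transcription factors, and in other cell types Amotl2 and Lats2 are known target genes of that activity. In the lung the co-activators are known for roles in the passage of AT2 cells toward alveolar type 1 (AT1) cells and in matrix production by fibroblasts.

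The 4 libraries held 6508 to 10545 cells in YAP/TAZ KD and 13883 to 15000 in control cultures. Median depth was 4961 to 5946 against 3875.5 to 4142 UMIs (unique RNA molecules) per cell. Cells are not replicates, so counts were summed per library over the classes the authors deposited, giving a fibroblast sum (5123 to 7472 cells in YAP/TAZ KD and 11480 to 12041 in control libraries) and an epithelial sum (1274 to 2589 and 1749 to 2233 cells). The 6 AT2 markers, Sftpc among them, totalled 33859 to 45652 CPM in YAP/TAZ KD and 23759 to 37547 CPM in control epithelial sums. In fibroblast sums they read 1087 to 2139 and 738 to 798 CPM, which is 3.21% to 4.69% of the epithelial level in YAP/TAZ KD and 2.13% to 3.11% in control libraries. The 6 fibroblast markers, Pdgfra among them, totalled 6344 to 6558 and 7280 to 9233 CPM in fibroblast sums. No marker of either list was at 0 in every library. In fibroblast sums, YAP/TAZ KD libraries read 41.4 to 53.4 CPM of cycling, 11.1 to 13.0 CPM of mesothelial and 0.957 to 1.10 CPM of basal markers, against 90.9 to 97.6, 35.6 to 44.3 and 10.6 to 15.04 CPM in controls. Fibroblast markers in epithelial sums read 417 to 599.5 CPM in YAP/TAZ KD and 804 to 956 CPM in controls. The part of the mesothelial, basal and fibroblast markers in the results was not tested. The YAP/TAZ KD libraries stood apart from each other in airway secretory markers, at 1.13 and 259 CPM in the fibroblast sums, as did the controls, at 1350 and 279.9 CPM, so the values without each library are given where they changed a call. In all, 1073 cell barcodes occurred in more than 1 library, at most 293 of them in any pair.

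In fibroblasts, 3 of the 10 genes fell with the knockdown: Amotl2, Wwc2 and Ptpn14. All 3 act upstream of YAP as scaffolds or binding partners, and a difference between such genes and the kinases was not tested. None of the core kinases and neither Sav1 nor Nf2 passed the test in the main fit, and no gene rose. With the replicate number as a block, the kinases Lats2 and Stk4 passed as well. At the same threshold, an adjusted p under 0.05 in edgeR's quasi-likelihood test, 6.22% of the 17481 genes tested fell and 4.42% rose. The median log2 fold change was -0.21 over the 10 genes and 0.01 over all genes tested. At an unadjusted p under 0.05 there were 5 of the 10 lower and 0 higher, and 4975 of the 17481 genes tested had such a p in either direction. How many of the 4975 were lower was not computed. Within single fibroblast classes, 5.89% to 12.1% of all genes had such a p and were lower. DESeq2 and limma voom each called 3 of the 10, and without the cycling classes edgeR again called Amotl2, Wwc2 and Ptpn14. In bulk sums of this kind, fewer cells of a type and less RNA per cell cannot be told apart.

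Amotl2 (ENSMUSG00000032531, GRCm38 chromosome 9, 102716672 to 102733418, plus strand) encodes an angiomotin-family scaffold that binds YAP at junctions. Its fibroblast level was 31.0 and 29.6 CPM (UMI counts scaled to the same normalised total in each library) in the YAP/TAZ KD libraries and 61.2 and 52.3 CPM in the controls. Both knockdown libraries lay below both controls, at 0.533 times the control level. The log2 fold change was -0.91 ± 0.12 (SE, n = 2 libraries per group), with adjusted p = 0.00443 in edgeR's quasi-likelihood test. It passed under 14 of 14 alternatives, with adjusted p between 3.39e-09 and 0.0155.

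Wwc2 (ENSMUSG00000031563, chromosome 8, 47823959 to 47990924, minus strand), a KIBRA-family scaffold, had 47.7 and 42.2 CPM in YAP/TAZ KD fibroblasts, against 73.2 and 67.0 CPM in control fibroblasts. The log2 fold change was -0.64 ± 0.11, with adjusted p = 0.0139 from edgeR. Ptpn14 (ENSMUSG00000026604, chromosome 1, 189728268 to 189876695, plus strand), a non-receptor tyrosine phosphatase that binds YAP, had 22.7 and 20.6 CPM in YAP/TAZ KD and 35.1 and 30.7 CPM in control fibroblasts. Its log2 fold change was -0.60 ± 0.12, with adjusted p = 0.0196 from edgeR. Within any 1 of 8 fibroblast classes, 24.3% to 32.3% of all genes tested lay below both controls in both YAP/TAZ KD libraries. These shares are from smaller sums, each scaled to its own total. The matching share for the fibroblast sums was not computed, so groups that lie apart there, here and below, have no background. In the fibroblast sums the groups did not overlap for Wwc2 or Ptpn14. Without YAP/TAZ KD library 2 neither passed in edgeR, with log2 fold changes of -0.55 (adjusted p = 0.0955) for Wwc2 and -0.53 (adjusted p = 0.114) for Ptpn14. With each fibroblast class given the same weight in every library, limma called Wwc2 (-0.67, adjusted p = 0.0144) and Amotl2 (-0.75, adjusted p = 0.00970) but not Ptpn14 (-0.42, adjusted p = 0.0706). That fit covers 8 classes and leaves out the Wnt4+, Tgfbi+ and smooth muscle cells, which are part of the fibroblast sums in very unequal numbers and are described with the small classes.

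The 250 bases before the RefSeq start site of these 3 genes are shown because the genes fell together and because TEAD factors, through which YAP and TAZ act, bind the M-CAT core GGAATG, which reads CATTCC when found on the opposite strand. Sequences are from RefSeq, build GRCm38.p6, 5′ to 3′ on the gene's strand, with each match to the core in capitals. The windows are chr9:102717554-102717803 (plus strand) for Amotl2, chr8:47990545-47990794 (minus strand) for Wwc2 and chr1:189728018-189728267 (plus strand) for Ptpn14. The RefSeq starts of Amotl2 and Wwc2 lie inside the gene spans given above, so their windows do too, whereas that of Ptpn14 ends directly before its gene.
Amotl2: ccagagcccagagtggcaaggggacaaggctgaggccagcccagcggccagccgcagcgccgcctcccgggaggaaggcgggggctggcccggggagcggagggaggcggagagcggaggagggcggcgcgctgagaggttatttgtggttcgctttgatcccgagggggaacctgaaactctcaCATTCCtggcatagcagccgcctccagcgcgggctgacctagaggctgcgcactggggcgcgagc
Wwc2: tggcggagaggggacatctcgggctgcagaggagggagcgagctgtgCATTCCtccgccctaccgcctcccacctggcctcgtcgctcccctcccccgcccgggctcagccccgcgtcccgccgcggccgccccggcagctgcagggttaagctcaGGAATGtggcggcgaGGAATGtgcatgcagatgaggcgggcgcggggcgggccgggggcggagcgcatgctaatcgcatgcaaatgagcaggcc
Ptpn14: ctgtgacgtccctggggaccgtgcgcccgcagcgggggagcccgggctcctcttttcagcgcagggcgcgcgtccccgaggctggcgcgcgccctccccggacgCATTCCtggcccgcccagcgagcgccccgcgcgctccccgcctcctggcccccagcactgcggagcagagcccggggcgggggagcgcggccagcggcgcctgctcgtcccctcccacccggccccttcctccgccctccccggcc
The Amotl2 window held 1 match, whose first base lay 65 bases before the start. Wwc2 held 3, at 203, 94 and 79 bases, and Ptpn14 held 1, at 146 bases. The same search of both strands found 1 match in the Sav1 window, at 106 bases, and no match in the windows of Stk4, Lats1, Lats2, Nf2 or Wwc1, of which Lats2 and Nf2 have 2 entries each. Stk3 has no entry. Of all 32851 RefSeq promoter windows of this length, 4153 (12.6%) held the core and 336 (1.02%) held it at least 2 times. These are matches of letters, not measured binding sites.

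The LATS kinases did not pass the test in fibroblasts in the main fit. Lats2 (ENSMUSG00000021959, chromosome 14, 57689662 to 57758388, minus strand) had 30.9 and 35.2 CPM in YAP/TAZ KD and 41.3 and 44.6 CPM in control fibroblasts. The groups did not overlap. With the replicate number as a block, edgeR gave adjusted p = 0.00155. In the main fit, without that block, the log2 fold change was -0.38 ± 0.11 with adjusted p = 0.0749 from edgeR. Without control library 1 it was -0.43 with adjusted p = 0.0456. Most of the Lats2 gene, 56442 bases, is shared on the same strand with the annotated protein-coding gene Gm49361, which has no entry in the deposited gene table, so the Lats2 counts are uncertain in that respect. Lats1 (ENSMUSG00000040021, chromosome 10, 7681214 to 7716460, plus strand) had 39.1 and 37.4 CPM in YAP/TAZ KD and 38.5 and 39.0 CPM in control fibroblasts. Its log2 fold change of -0.02 had a 95% interval from -0.25 to 0.21.

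The upstream kinases and their scaffold did not pass in the main fit either. Stk4 (ENSMUSG00000018209, chromosome 2, 164070322 to 164155524, plus strand) had 16.6 and 16.7 CPM in YAP/TAZ KD fibroblasts, against 20.2 and 20.3 CPM in the controls. The groups lay apart, and the log2 fold change was -0.28 ± 0.11 with adjusted p = 0.132 from edgeR. With the replicate number as a block, edgeR gave adjusted p = 0.0232. Stk3 (ENSMUSG00000022329, chromosome 15, 34875496 to 35178921, minus strand) had 103 and 83.6 CPM in YAP/TAZ KD and 105 and 93.4 CPM in control fibroblasts, and the groups overlapped. Sav1 (ENSMUSG00000021067, chromosome 12, 69965012 to 69987002, minus strand) had 53.9 and 54.0 CPM in YAP/TAZ KD, between the 56.3 and 52.0 CPM of the controls. The 95% intervals of the log2 fold change ran from -0.40 to 0.22 for Stk3 and from -0.24 to 0.23 for Sav1.

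Of the remaining membrane-linked regulators, Nf2 (ENSMUSG00000009073, chromosome 11, 4765845 to 4849536, minus strand) had 25.6 and 24.4 CPM in YAP/TAZ KD and 28.9 and 26.4 CPM in control fibroblasts. The groups did not overlap, and the change of -0.14 on the log2 scale did not pass (edgeR, adjusted p = 0.414). Wwc1 (ENSMUSG00000018849, chromosome 11, 35838400 to 35980527, minus strand), the gene of KIBRA itself, had 7.21 and 4.68 CPM in YAP/TAZ KD and 6.08 and 4.62 CPM in control fibroblasts. At such low values, fibroblast expression of Wwc1 and epithelial RNA in these sums cannot be told apart. Epithelial RNA at the share that AT2 markers have in the fibroblast sums would amount to 290% and 264% of Wwc1's fibroblast level in YAP/TAZ KD, and to 234% and 177% in the controls. These amounts exceed the whole measured level, so the AT2 marker share overstates epithelial RNA for Wwc1 and may do so for other genes. For Amotl2, Wwc2 and Ptpn14 the same share would amount to 13.2% to 24.8% of the fibroblast level in YAP/TAZ KD and 4.24% to 13.9% in the controls. Its part in their changes was not tested.

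**Figure D1:**
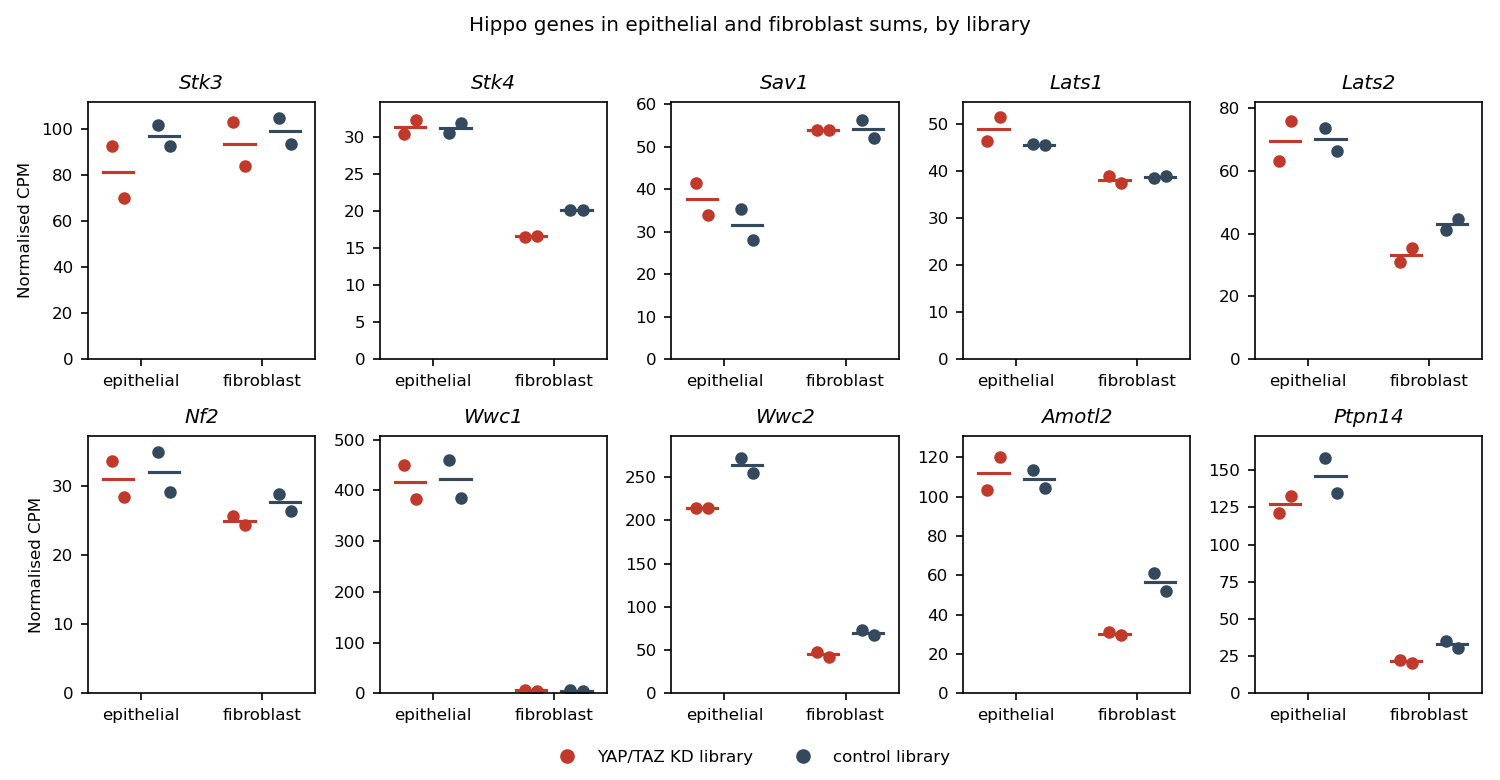
Normalised CPM (y axis, from 0) of each of the 10 genes in the epithelial and fibroblast sums (x axis), with a point for each library and a bar at the mean of 2 libraries, YAP/TAZ KD left of control. In fibroblasts Amotl2, Wwc2, Ptpn14, Lats2, Stk4 and Nf2 lie lower in both YAP/TAZ KD libraries than in both controls. Within single fibroblast classes, 24.3% to 32.3% of all genes tested lay below in this way. The share for the fibroblast sums shown was not computed. Only Amotl2, Wwc2 and Ptpn14 passed the test in fibroblasts in the main fit. Wwc1 lies near 0 in fibroblasts of both groups.

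Gene span moved with the result in both compartments, and with the difference between replicates, over the whole table. The Spearman correlation between a gene's genomic span and its log2 fold change was -0.23 across 17467 genes in fibroblasts. In epithelial cells it was -0.41 across 13943 genes. Genes are not independent replicates. Span also correlated with the log2 difference of replicate 1 minus replicate 2, at 0.27 (YAP/TAZ KD) and 0.21 (control) in fibroblasts. In epithelial cells these correlations were 0.32 and 0.31. With genes split by span into 4 groups of equal size, the group of longest genes had a median fibroblast log2 fold change of -0.15. Of its genes 12.3% were called lower in fibroblasts, and the group of shortest genes had 0.12 and 3.43%. Of the 10 genes, 7 belong to the group of longest genes, Wwc2 (166966 bases) and Ptpn14 (148428 bases) among them, so the median of -0.21 over the 10 stands beside -0.15 for that group. Amotl2 (16747 bases) belongs to the group next to the shortest, where 3.92% were called lower. With a correction for gene length, edgeR again called 3 of the 10 genes.

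In epithelial cells, which were not targeted, 0 of the 10 genes passed in edgeR, against 1.44% of the 13952 genes tested. At an unadjusted p under 0.05 the count was 0 as well, and DESeq2 and limma voom each called 0. The median log2 fold change was -0.02 over the 10 genes and 0.02 over all genes tested. The mix of classes in the epithelial sums differed by library. Cells of the class named transitional were 767 of 2589 and 592 of 1274 in YAP/TAZ KD libraries. In controls they were 1032 of 2233 and 661 of 1749. No fit gave epithelial classes equal weights, so the part of this mix was not tested, here or between compartments. Amotl2 had 103 and 120.1 CPM in YAP/TAZ KD and 113 and 104 CPM in control epithelium, with overlapping groups and a 95% interval of the log2 fold change from -0.32 to 0.39. Wwc2 had 214 and 214 CPM in YAP/TAZ KD epithelium, below the 272 and 255 CPM of the controls. The difference of -0.30 ± 0.18 on the log2 scale did not pass (edgeR, adjusted p = 0.545). Ptpn14 had 121 and 133 CPM in YAP/TAZ KD and 158 and 135 CPM in control epithelium, a log2 fold change of -0.20 ± 0.17.

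The core kinases and scaffold likewise gave small differences in the epithelium. Sav1 had 41.5 and 34.0 CPM in YAP/TAZ KD and 35.3 and 28.0 CPM in control epithelium, the highest of the 10 log2 fold changes at 0.25 ± 0.17. Stk3 had 92.7 and 69.8 CPM in YAP/TAZ KD and 102 and 92.3 CPM in control epithelium, a log2 fold change of -0.25 ± 0.18. Lats1, Lats2, Stk4, Nf2 and Wwc1 had log2 fold changes between -0.05 and 0.10, and their SEs ran between 0.15 and 0.20.

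Whether the effect differed between the compartments was tested as an interaction on the 8 sums with the library as a block. Of the 10 genes 1 passed, Amotl2, against 3.55% of the 17188 genes tested. The log2 fold change of Amotl2 was 0.97 ± 0.13 lower in fibroblasts than in epithelial cells (adjusted p = 0.00249, edgeR), and it passed under 14 of 14 alternatives. Ptpn14, Lats2 and Wwc2 had differences of -0.43 ± 0.12, -0.40 ± 0.12 and -0.38 ± 0.12 on the log2 scale, and none passed in edgeR (adjusted p = 0.0931, 0.115 and 0.125). No difference between the compartments was therefore shown for these 3 genes. Their 95% intervals ran from -0.70 to -0.16 for Ptpn14, from -0.66 to -0.13 for Lats2 and from -0.63 to -0.12 for Wwc2, before adjustment over all genes.

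**Figure D2:**
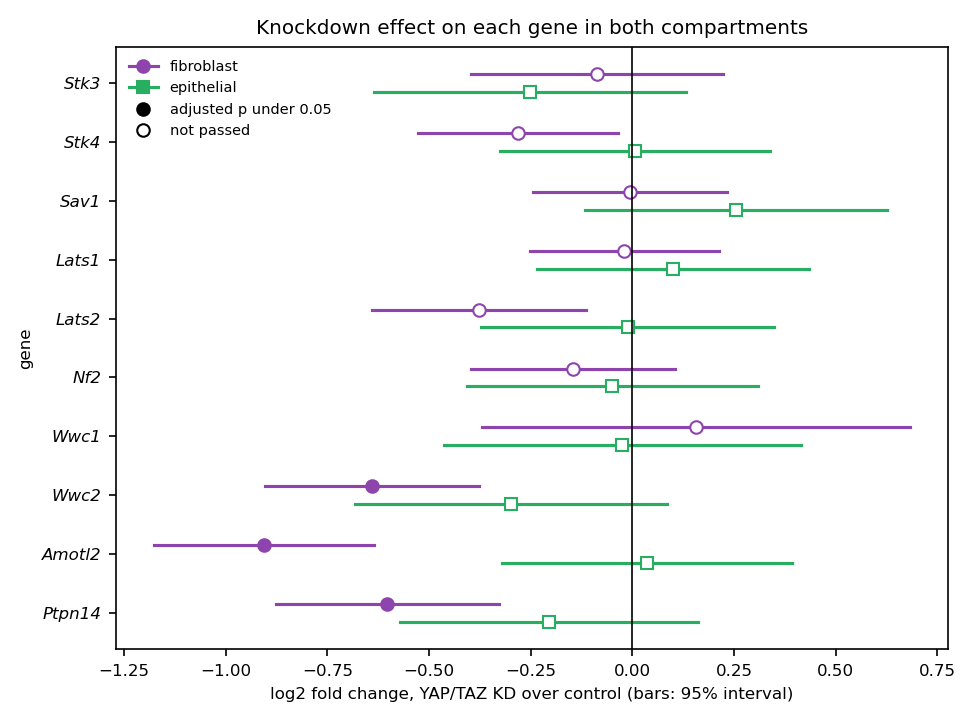
Log2 fold change of YAP/TAZ KD over control (x axis) for each gene (y axis) in fibroblasts (circles) and epithelial cells (squares), with 95% intervals as bars and filled symbols where the adjusted p was under 0.05. Amotl2 at -0.91, Wwc2 at -0.64 and Ptpn14 at -0.60 in fibroblasts are the filled symbols, and no epithelial symbol is filled.

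Control cultures showed how the 10 genes were divided between the compartments at baseline. In this contrast, 8 of the 10 genes passed in edgeR, 6 of them higher and 2 lower in epithelial cells. The background was high, with 31% of the 17188 genes tested higher and 33.7% lower, and the authors built the classes from expression in the same cells. Wwc1 had the widest gap, at 472 and 385 CPM in epithelial and 6.26 and 4.62 CPM in fibroblast sums of the controls, scaled here to each sum's own total. Its log2 difference was 6.10 ± 0.12 (adjusted p = 1.25e-11, edgeR), a 68.7-fold higher epithelial level. As described above, its fibroblast level cannot be told apart from epithelial RNA.

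Wwc2 and Ptpn14 followed the same direction. Wwc2 read 279 and 254 CPM in epithelial and 75.5 and 66.9 CPM in fibroblast sums, a log2 difference of 1.70 ± 0.08 (3.26-fold). Ptpn14 read 162 and 134 against 36.2 and 30.6 CPM, a log2 difference of 1.95 ± 0.09 (3.85-fold). Amotl2 was 1.67-fold, Lats2 1.41-fold and Stk4 1.34-fold higher in epithelial cells. Stk4 did not pass without control library 2 (log2 difference 0.38, adjusted p = 0.0572).

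Sav1 went the other way, with 36.2 and 28.0 CPM in epithelial and 58.1 and 51.9 CPM in fibroblast sums of the controls, a log2 difference of -0.98 ± 0.09. Fibroblast RNA, at the share that fibroblast markers have in the epithelial sums, would amount to 16.2% to 21.05% of that epithelial level, and its part in the result was not tested. Stk3 differed by -0.24 ± 0.07 (adjusted p = 0.0137, edgeR). Its sign turned with a correction for gene length, to 0.19, and it did not pass without YAP/TAZ KD library 1 (-0.18, adjusted p = 0.0550), without control library 1 (-0.22, adjusted p = 0.208) or without control library 2 (-0.26, adjusted p = 0.123). Lats1 and Nf2 did not pass, with log2 differences of 0.03 (95% interval -0.17 to 0.23) and 0.01 (-0.19 to 0.20).

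The classes within each compartment gave a finer order. With the authors' AT2 class split here by cluster, 12 classes held at least 50 cells in every library, 8 of them of fibroblast type. The 4 epithelial classes were AT2 cells of cluster 9, AT1-like cells of cluster 14, cycling AT2 and transitional cells. The authors deposited clusters 9 and 14 both as AT2. Control AT1-like cells read 1849 and 2642 CPM of 6 AT1 markers, against 690 and 986 CPM in AT2 cells of cluster 9. AT2 markers read 10494 and 16871 CPM in AT1-like cells, against 67079 and 91070 CPM. Levels within a class are CPM of that class's own total, as the mean of 2 control libraries, and the order is a description without a test. The class named transitional epithelial cells read 831 and 944 CPM of AT2 and 351 and 407 CPM of AT1 markers in control libraries. Both lists read lower there than in AT2 cells of cluster 9 and in AT1-like cells. In transitional cells 6 of the 10 genes had their highest control level: Amotl2 (165 CPM), Wwc2 (369 CPM), Ptpn14 (219 CPM), Lats2 (108 CPM), Lats1 (58.6 CPM) and Stk4 (36.8 CPM). Each of the 6 read higher in both control transitional sums than in both control AT2 sums.

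AT1-like cells came next for 5 of these 6 genes, and for Lats1 it was myofibroblast-like cells. Amotl2 stood at 95.3 CPM and Stk4 at 29.8 CPM in AT1-like cells, against 63.0 and 27.7 CPM in AT2 cells of cluster 9. Wwc2 stood at 325 CPM, Ptpn14 at 189 CPM and Lats2 at 82.4 CPM in AT1-like cells, against 132, 48.6 and 28.6 CPM in AT2 cells of cluster 9. The ratio of transitional cells to AT2 cells was 4.93 in YAP/TAZ KD and 4.50 in control libraries for Ptpn14, 4.75 and 3.77 for Lats2, 3.15 and 2.62 for Amotl2, and 2.93 and 2.81 for Wwc2. AT1-like cells exceeded AT2 cells in both libraries of both groups for each of these 4 genes. In AT2 and cycling AT2 cells, at 28.6 and 28.2 CPM, Lats2 lay below the means of all 8 fibroblast classes, which ran from 39.1 to 46.9 CPM, and in transitional and AT1-like cells it lay above them.

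Wwc1 did not follow that order. It was high in all 4 epithelial classes, at 525 CPM in AT1-like, 423 CPM in AT2, 409.8 CPM in transitional and 391.9 CPM in cycling AT2 cells, and these neighbours overlapped between control libraries. The highest fibroblast class, EMT-like, had 9.90 CPM. Sav1 ran opposite, with its lowest level in AT1-like cells (23.5 CPM) and its highest in the class named unknown mesenchymal (70.8 CPM). The 2 control values of Sav1 there, 89.0 and 52.5 CPM, overlapped those of EMT-like cells. Nf2 was highest in cycling AT2 cells, at 43.1 CPM, against 26.8 CPM in AT2 cells, and overlapped with myofibroblast-like cells (36.9 CPM). The Nf2 ratio of cycling AT2 to AT2 cells was 0.93 in YAP/TAZ KD and 1.61 in control libraries. Stk3 was the flattest, between 89.0 and 119 CPM, and all 11 neighbouring pairs of classes overlapped between control libraries.

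The least separated orders after Stk3 were those of Stk4 and Nf2, with 9 of 11 neighbouring pairs overlapping. Lats1, Lats2, Sav1 and Wwc1 had 8, Wwc2 and Amotl2 had 7, and Ptpn14 had 6. Amotl2 and Ptpn14 also had their lowest levels in the same class, unknown mesenchymal, at 18.9 and 16.5 CPM. Wwc2 was lowest there too, at 48.5 CPM. That class held only 85 and 106 cells in the control libraries, so its levels rest on few counts. Every Wwc2 epithelial value, from 127 CPM upward in the controls, exceeded every fibroblast class value, of at most 92.7 CPM.

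**Figure D3:**
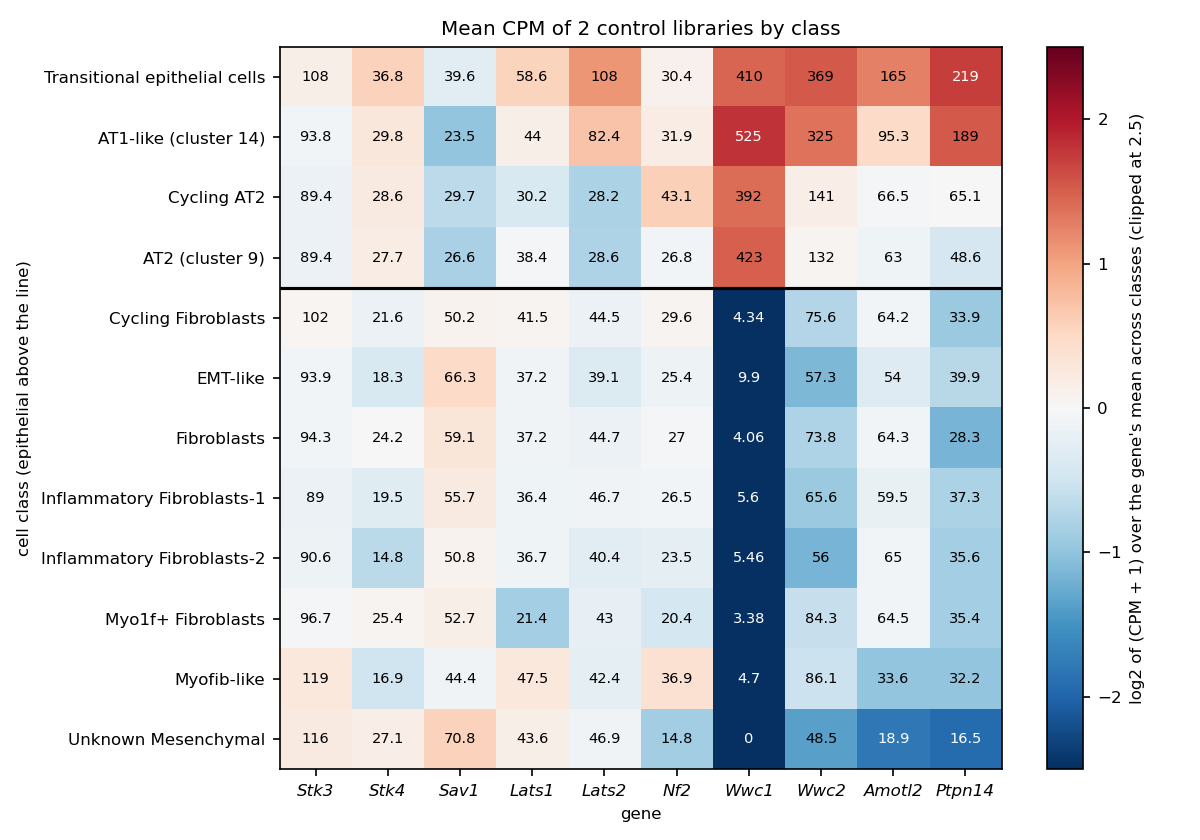
Mean CPM of the 2 control libraries (printed numbers) for each gene (columns) in the 12 classes (rows, epithelial above the line). Colour is log2 of (CPM + 1) over the gene's mean across classes, clipped at 2.5, so colours compare classes within a gene. Transitional and AT1-like cells are the reddest for Wwc2, Ptpn14 and Lats2, while Wwc1 is high in all 4 epithelial classes.

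Across these 12 control class means, the genes nearest each of the 10 were found by Pearson correlation of log2(CPM + 1) among 11138 genes with a mean of at least 5 CPM. The class means share libraries and depth, and the correlations are descriptions. Ptpn14 was most like Mcam (r = 0.99) and Mrtfa (0.97), Wwc2 most like Mpp5 and Acot9 (both 0.98), and Wwc1 most like Susd4 and Clcn3 (both 0.99). Sav1 was close to Nr2f2 (0.96), Lats1 to Mfap3 (0.96) and Dcp1a (0.95), and Lats2 to Zbtb40 (0.96) and Trim56 (0.95). Amotl2 had Fam107b (0.95) and Tmem168 (0.92), and Stk4 had Tle4 (0.95) and Ppp6r3 (0.94). Stk3 had Gtf3c4 (0.92) and Rasa1 (0.90), and Nf2 had Pop1 and U2af1l4 (both 0.92). Among the 10 themselves, Wwc2 and Ptpn14 were the most alike (0.95) and Sav1 and Wwc1 the most opposed (-0.90).

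The knockdown effect was then tested within each of the 12 classes, which gave 118 tests, since Wwc1 was too low in Myo1f+ fibroblasts and unknown mesenchymal cells. In all, 8 of these tests passed in edgeR, all of them lower in YAP/TAZ KD, all in fibroblast classes and all in Amotl2, Wwc2 or Ptpn14. In the 4 epithelial classes 0 of 40 tests passed, where 0.922% of all genes tested passed in AT2, 0.51% in AT1-like, 1.34% in cycling AT2 and 0.304% in transitional cells. At an unadjusted p under 0.05 there were 2 of 40, 1 higher and 1 lower, and DESeq2 and limma voom each called 0. In the 8 fibroblast classes 21 of 78 tests had an unadjusted p under 0.05, and all 21 were lower in YAP/TAZ KD. Over all genes, 11.5% to 24.5% had such a p in these classes, and 5.89% to 12.1% had it and were lower. DESeq2 gave 11 of 78 at that level, all lower, and DESeq2 and limma voom each called 6 after adjustment. Without a filter on low counts, 5 of the 8 edgeR calls were lost: Amotl2 in myofibroblast-like cells (adjusted p = 0.157) and cycling fibroblasts (0.614), Wwc2 in myofibroblast-like cells (0.191) and Fibroblasts (0.0596), and Ptpn14 in Fibroblasts (0.0825).

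In edgeR, Amotl2 fell in 4 fibroblast classes. The fall was deepest in myofibroblast-like cells, with 11.4 and 10.6 CPM in YAP/TAZ KD and 36.8 and 30.3 CPM in control libraries, a log2 fold change of -1.55 ± 0.21 (adjusted p = 0.000177, edgeR), in a class where 3.95% of genes were called lower. In the class deposited as Fibroblasts, where 4.42% were called lower, it had 33.4 and 31.9 CPM in YAP/TAZ KD and 71.5 and 57.2 CPM in control libraries, a log2 fold change of -0.92 ± 0.14 (adjusted p = 0.00211, edgeR). In cycling fibroblasts (1.16% called lower) and EMT-like cells (3.22%) the log2 fold changes of -0.77 and -0.59 had adjusted p = 0.0382 and 0.0444 in edgeR. Both of these calls were lost without YAP/TAZ KD library 1 (adjusted p = 0.501 and 0.0744), YAP/TAZ KD library 2 (0.740 and 0.193) or control library 1 (0.139 and 0.422), again in edgeR. DESeq2 and limma voom called Amotl2 in neither cycling fibroblasts nor EMT-like cells. The Fibroblasts class holds a cluster mostly of control cells and another mostly of YAP/TAZ KD cells, so its values compare partly different clusters.

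The remaining classes did not pass for Amotl2. The log2 fold change was -0.78 in Myo1f+ fibroblasts (where 1.2% of all genes were called lower), -0.62 in inflammatory fibroblasts-2 (1.16%) and -0.27 in inflammatory fibroblasts-1 (1.39%). In unknown mesenchymal cells (0.718%) the YAP/TAZ KD values of 25.1 and 24.2 CPM lay above the control values of 14.8 and 22.98 CPM. The log2 fold change was 0.42 ± 0.47, with only 85 and 106 cells of this class in the control libraries. In the epithelial classes Amotl2 lay on both sides of the controls and passed in none. In AT1-like cells the YAP/TAZ KD values lay above, at 119 and 127 CPM in YAP/TAZ KD and 99.9 and 90.6 CPM in control libraries, a log2 fold change of 0.39 ± 0.19 (adjusted p = 0.549, edgeR). They lay above in transitional cells too, at 175 and 183 CPM in YAP/TAZ KD and 166 and 163 CPM in control libraries. They lay below in AT2 cells, at 58.6 and 54.9 CPM in YAP/TAZ KD and 64.4 and 61.5 CPM in control libraries, and in cycling AT2 cells, at 61.6 and 59.0 against 69.8 and 63.2 CPM.

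Across the 8 fibroblast classes, which share the same 4 libraries, the log2 fold change of Wwc2 ran from -0.94 to -0.11. Wwc2 fell in 3 of these classes. It had 44.5 and 41.2 CPM in YAP/TAZ KD and 92.7 and 79.6 CPM in control myofibroblast-like cells, a log2 fold change of -0.94 ± 0.16 (adjusted p = 0.00128, edgeR). EMT-like cells had 36.0 and 28.0 CPM in YAP/TAZ KD and 61.2 and 53.4 CPM in control libraries, a log2 fold change of -0.79 ± 0.17 (adjusted p = 0.0103, edgeR), which was lost without YAP/TAZ KD library 2 (-0.58, adjusted p = 0.148). In the Fibroblasts class the log2 fold change was -0.64 ± 0.13 (adjusted p = 0.00986, edgeR). In the 4 epithelial classes of the same libraries the log2 fold change of Wwc2 lay between -0.26 and -0.15, and none passed the test.

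Ptpn14 passed in 1 class, Fibroblasts, with 18.4 and 17.5 CPM in YAP/TAZ KD and 29.4 and 27.2 CPM in control libraries. The log2 fold change there was -0.60 ± 0.14 (adjusted p = 0.0223, edgeR), and it was lost without YAP/TAZ KD library 2 (-0.52, adjusted p = 0.124). Lats2 passed in no class, yet both YAP/TAZ KD libraries lay below both controls in 8 of 8 fibroblast classes, where 0.718% to 4.42% of all genes were called lower. The classes share the same 4 libraries. Of all genes tested, 24.3% to 32.3% lay below in the same way in any 1 of these classes, and 266 of the 7139 genes tested in all 8 classes (3.73%) did so in every class. Across those classes its log2 fold changes ran from -0.82 in Myo1f+ fibroblasts to -0.28 in EMT-like cells. In the epithelial classes Lats2 lay on both sides of 0, between -0.12 and 0.24. For Stk3, Stk4, Sav1, Lats1, Nf2 and Wwc1 no class passed in edgeR.

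**Figure D4:**
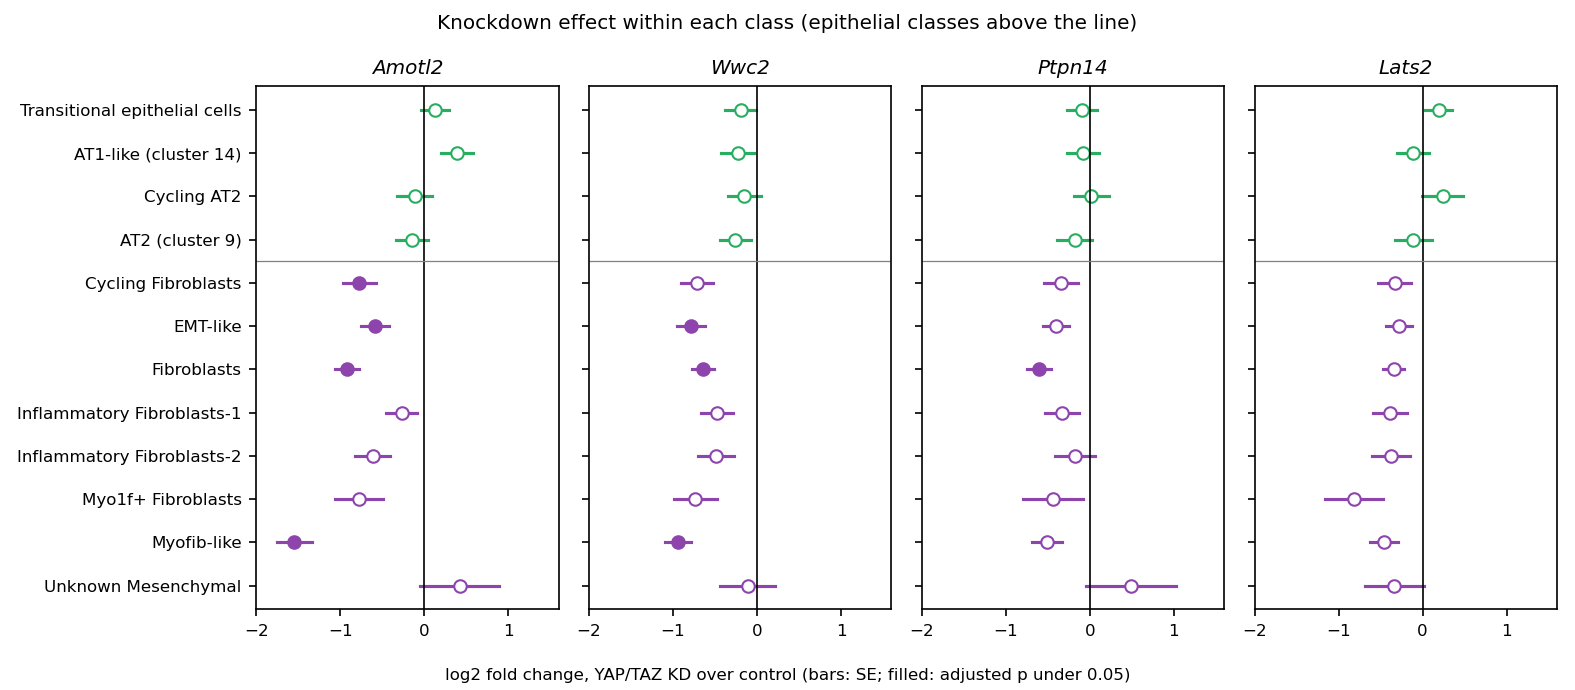
Log2 fold change of YAP/TAZ KD over control (x axis) within each of the 12 classes (y axis, epithelial classes above the line) for Amotl2, Wwc2, Ptpn14 and Lats2, with SE as bars and filled circles where the adjusted p was under 0.05. Amotl2 is filled in 4 fibroblast classes, with its lowest value of -1.55 in myofibroblast-like cells, Wwc2 in 3 and Ptpn14 in 1.

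Classes too small in some libraries for a test were read as values. The Wnt4+ fibroblasts held 1362 and 971 cells in YAP/TAZ KD and 7 and 32 in control libraries, so only their YAP/TAZ KD values carry depth. There Amotl2 had 19.1 and 14.2 CPM, Lats2 29.5 and 30.3 CPM, and Ptpn14 12.9 and 11.2 CPM. Tgfbi+ fibroblasts, with 931 and 404 cells in YAP/TAZ KD and 5 and 38 in control libraries, had 26.4 and 31.1 CPM of Amotl2 in YAP/TAZ KD. Smooth muscle cells, with 48 and 5 cells in YAP/TAZ KD and 724 and 753 in control libraries, had 61.2 and 50.1 CPM of Amotl2 in the controls.

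The wider pathway was read from a list of 41 other Hippo genes. In fibroblasts 1 rose, 4 fell and 36 did not pass in edgeR, with a median log2 fold change of -0.16 against 0.01 over all genes, and 10.6% of all genes tested were called in either direction. Of the targeted co-activators, Yap1 had 40.9 and 36.4 CPM in YAP/TAZ KD and 61.3 and 64.9 CPM in control fibroblasts (log2 fold change -0.71 ± 0.11, adjusted p = 0.00864, edgeR). Without YAP/TAZ KD library 2 the adjusted p was 0.0559. Wwtr1, the gene of TAZ, had 194 and 172 CPM in YAP/TAZ KD and 239 and 231 CPM in control fibroblasts, a log2 fold change of -0.36 that did not pass (adjusted p = 0.115, edgeR). Vgll3, a TEAD cofactor, fell by 1.404 on the log2 scale (adjusted p = 0.00106, edgeR), at 12.7 and 14.4 CPM in YAP/TAZ KD and 34.9 and 36.8 CPM in control fibroblasts.

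Among the kinases parallel to Stk3 and Stk4, 1 of 9 MAP4K and TAO kinases fell and the other 8 did not pass. This was Tnik, with 19.5 and 16.4 CPM in YAP/TAZ KD and 34.0 and 33.1 CPM in control fibroblasts (log2 fold change -0.90, adjusted p = 0.00485, edgeR). In cells with at most 20% mitochondrial UMIs the log2 fold change of Tnik was -0.32 (adjusted p = 0.342). Of the 4 MOB adaptors and NDR kinases, Stk38l, a relative of the LATS kinases, rose, at 43.3 and 41.2 CPM in YAP/TAZ KD and 31.97 and 31.5 CPM in control fibroblasts (log2 fold change 0.41, adjusted p = 0.0407, edgeR). Without any 1 of the 4 libraries Stk38l did not pass, with adjusted p between 0.0605 and 0.199. None of the 9 STRIPAK genes, whose phosphatase complex acts against Stk3 and Stk4, passed. Of 11 junction and polarity regulators 1 fell, Frmd6, which activates the pathway at the membrane, with 139.9 and 131 CPM in YAP/TAZ KD and 251 and 225 CPM in control fibroblasts (log2 fold change -0.81, adjusted p = 0.00915, edgeR). Without YAP/TAZ KD library 2 its adjusted p was 0.0518. In epithelial cells 0 of the 41 genes passed in edgeR, DESeq2 or limma voom, and 1, 2 and 1 had an unadjusted p under 0.05. Over all genes 1.44% were called there, and 1586 of 13952 had such an unadjusted p in edgeR.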

How the data were processed

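The RNA part of 10x Multiome libraries from 4 alveolosphere cultures was used. The deposited matrix holds whole-number UMI counts per gene and cell, not normalised, and the authors deposited the class, cluster and percent of mitochondrial UMIs of each cell; 55 further columns of per-cell values were left out. The submitters' processing notes name GRCm38 and mm10. No source used here gives the aligner, the use of strand and of intronic reads, or doublet removal. Total counts ran from 44284602 to 71523447 UMIs per library.

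Counts were summed per library and class; the AT2 class was split by cluster. Its clusters 19 and 23, whose fibroblast markers reached 61.6% and 54.8% of the level in fibroblasts, entered no sum, nor did mesothelial cells, and the small cluster 32 entered only the epithelial sum. Sums were compared with edgeR 4.0.16 (R 4.3.3; TMM, filterByExpr with a minimum count of 10, quasi-likelihood test, Benjamini-Hochberg adjustment over all genes tested), and a gene was called at an adjusted p under 0.05. Alternatives were DESeq2 1.42.0, limma 3.58.1, other size factors, no low-count filter, a replicate block, gene-length offsets and leaving out libraries or cells. The tests were first tested on simulated data. All 10 genes passed the filter in both compartments, and of 120 gene and class pairs 118 did. Gene coordinates are from GENCODE on GRCm38. The named genes are the 10 members, listed pathway genes that were called, Yap1 and Wwtr1, and the 2 nearest genes of each member, 1 of which is not reported here. The members and lists were chosen with earlier results of these data known. Opposite-strand overlaps with Tomm34 (Stk4), Atl1 (Sav1) and Cldn22 (Wwc2) leave those counts uncertain where strand was not used; Cldn22 itself had 0 and 1 counts in YAP/TAZ KD and 9 and 0 in control fibroblasts.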

Additional observations from a re-analysis of the deposited data

Results flagged for a closer look

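The knockdown effect differed between fibroblasts and epithelial cells, by the interaction test in edgeR, for 3 of the genes named here, where 3.55% of all genes tested were called. They were 1 of the 10 genes and 2 of the 41 other Hippo genes. DESeq2 also called 1 of the 10, and 0 of the 41. Amotl2 differed by -0.97 ± 0.13 (fibroblast minus epithelial log2 fold change, adjusted p = 0.00249), with -0.91 in fibroblasts and 0.04 in epithelial cells. Frmd6 differed by -0.65 ± 0.13 (adjusted p = 0.0197), with -0.81 and -0.19. Yap1, a targeted gene, differed by -0.57 ± 0.13 (adjusted p = 0.0316), with -0.71 and -0.17. The Amotl2 difference passed under 14 of 14 alternatives, the Frmd6 difference under 10 of 14 and the Yap1 difference under 9 of 14.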

How the results depend on the processing

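The fibroblast count of 3 called genes was 5 with a replicate block, which added Stk4 (edgeR, adjusted p = 0.0232) and Lats2 (0.00155), and 1 to 4 with single libraries left out, 1 without YAP/TAZ KD library 2. The count of differences, 1, was 4 without a filter on low counts, 4 with the block, 3 with the block and a gene length correction and 3 with all AT2 clusters. Class calls, 8, were 3 without a filter, 16 with the block and 4 to 12 with single libraries left out. The epithelial count stayed at 0 under every alternative run, and the compartment count ran between 6 and 8. Among values called or larger than their SE, signs turned for Stk3 between compartments, at 0.19 with the length correction and 0.20 with the block added, and for the Frmd6 difference, at 0.15 with all AT2 clusters. Others crossed 0 without a call on either side, such as the Vgll3 difference (-0.74 to 0.13) and Stk3 (-0.25 to 0.18) and Wwc1 (-0.20 to 0.43) in fibroblasts. The causes were not tested. The labels name no batch by replicate number, so the numbers were not taken as pairs in the main fit. Same-numbered libraries deviated together with r = 0.11 in fibroblasts and 0.08 in epithelial cells over 2 pairs. Gene span correlated with the difference between replicates in the same direction in both groups, and the block raised the number of fibroblast calls. Whether the replicate numbers mark a shared condition was not tested.

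Over all genes, 1860 were called in fibroblasts, against 5820 with the block, 4786 with block and length, 1077 with equal class weights, and 1176, 998 and 3666 without YAP/TAZ KD library 1, YAP/TAZ KD library 2 and control library 2. In epithelial cells 201 were called, against 528 without a filter, 329 with the block, 89 with block and length, 780 with all AT2 clusters, and 684, 416 and 373 without the same libraries. For the difference 610 were called, against 1303 without a filter, 284 by DESeq2, 1252 with the block, 1070 with block and length, 295 without cycling classes, 1010 with all AT2 clusters, 978 without YAP/TAZ KD library 2 and 249 without control library 1.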
